A study of Mus musculus with 8 samples.

Results

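Altogether 9 genes that regulate or mark the renal stroma (Foxd1, Meis1, Meis2, Tcf21, Alx1, Smoc2, Pdgfra, Pdgfrb and Fibin) were followed in cells sorted by GFP from kidney rudiments of mouse embryos. A gene entered where a probe that is no control spot carried its name on both array designs used. Each of the 9 genes had 1 such probe, so 9 of the 39429 probes and 9 of the 30139 gene names on both designs were members. All 9 probes were well above background on all 8 arrays, no spot was saturated, and all 9 passed the filter on dim probes.

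RNA came from NMRI embryos of both sexes, pooled, at E11.5, just after the ureteric bud grows into the mesenchyme of the future kidney. The 3 control pools were Tbx18(GFP/+), which carry 1 functional allele of Tbx18, a T-box transcription factor gene of the mesenchyme around the early ureter. The 3 Tbx18 null pools were Tbx18(GFP/GFP), without a functional allele. The 2 Tbx18VP16 pools were Tbx18(cre/+);Hprt(Tbx18VP16), in which Cre made from the Tbx18 locus switches on a fusion of Tbx18 to the activating domain of VP16, together with GFP, in the Hprt locus. Each pool joined the cells of several sorting rounds to about 100000. GFP thus reported the Tbx18 locus in control and null cells, and the Hprt insertion in cells that had made Cre, or whose ancestors had, in Tbx18VP16 pools. The control carries a GFP allele and the Tbx18VP16 pools a Cre allele of Tbx18, and all 3 genotypes lack at least 1 functional allele. The labels do not say which embryos entered which pool, so p-values measure the spread between pools.

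The renal stroma is the supporting tissue of the kidney. Its progenitors express the forkhead factor Foxd1, surround the nephron progenitors, and give rise to interstitial fibroblasts, the mural cells of vessels and the mesangial cells of the glomerulus. Meis1 and Meis2 are TALE homeodomain factors of stromal cells and Tcf21 is a basic helix-loop-helix factor of kidney mesenchyme, stroma and podocytes. Pdgfra and Pdgfrb are the receptor tyrosine kinases for platelet-derived growth factors, through which mesenchymal and mural cells are recruited. Cells with a history of Tbx18 expression contribute to the ureteric wall and to part of the stroma.

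No binding data accompany the arrays, so the sequences are shown to place the regulators beside the genes. RefSeq promoter entries (GRCm38.p6, 250 bases before to 50 after a gene's start) were matched by symbol for 6 of the 9 members: Foxd1, Meis1, Meis2, Tcf21, Pdgfra and Fibin. The letters TGACAG, a core that MEIS proteins bind, were found on either strand in 2 of the 6, Foxd1 and Pdgfra, and in 19.2% of all 32851 promoters. The T-box core GGTGTGA was in none of the 6 and in 3.98% of all promoters, the forkhead letters TGTTTAC in none and in 3.65%, and the E-box CAGCTG in none and in 16.3%. No match of a motif overlapped a match of another in these 6 entries. A match is a run of letters and shows no binding. The promoters of Foxd1 (chr13:98353995-98354264, plus strand) and Pdgfra (chr5:75152001-75152270, plus strand) are given 5′ to 3′ from 250 bases before to 20 bases after the start, with TGACAG in capitals. It begins 50 bases before the start in Foxd1 and 3 bases before it in Pdgfra. The third run is the 60-base array probe that measured Tcf21, which lies in the coding sequence of the gene and is shown as the piece of transcript a level stands for.
Foxd1 promoter: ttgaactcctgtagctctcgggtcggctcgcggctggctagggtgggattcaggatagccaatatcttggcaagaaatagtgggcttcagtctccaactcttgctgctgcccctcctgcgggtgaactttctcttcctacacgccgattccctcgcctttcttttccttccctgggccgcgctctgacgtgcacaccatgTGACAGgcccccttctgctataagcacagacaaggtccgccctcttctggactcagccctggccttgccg
Pdgfra promoter: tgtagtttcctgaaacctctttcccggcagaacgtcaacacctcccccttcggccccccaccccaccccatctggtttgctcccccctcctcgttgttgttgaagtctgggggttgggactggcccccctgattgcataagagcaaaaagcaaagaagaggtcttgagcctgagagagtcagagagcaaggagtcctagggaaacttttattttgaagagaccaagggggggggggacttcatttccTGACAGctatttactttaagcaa
Tcf21 probe: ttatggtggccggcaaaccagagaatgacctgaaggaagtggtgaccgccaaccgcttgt
The Foxd1 promoter entry held 15 CpG dinucleotides at 57.7% GC and that of Pdgfra 5 at 51.0%, where the median over all promoters was 7 CpG at 52.7%.

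Levels below are log2 of the background-corrected signal minus the 75th percentile of the array, so a level of 1 is a signal 1 log2 step above that percentile. They compare pools for 1 gene, not genes with each other. Changes are log2 differences of group means with the standard error of the limma fit. The p values were adjusted by Benjamini-Hochberg across every gene tested, and calls were made at 0.05. The number of arrays limits the precision. Between 58.6% and 64.3% of probes were well above background. Tbx18 itself, the check of the labels, lay between -0.02 and 1.20 in control, between -2.40 and -1.34 in null and between 1.06 and 1.34 in Tbx18VP16 pools. Control and null arrays were of 1 design, with replicates 1 and 2 on 1 slide and replicate 3, made from 10 ng of RNA in place of 20 ng, on another. Both Tbx18VP16 arrays were of another design on a slide of their own, so genotype cannot be told apart from design and slide in any Tbx18VP16 comparison.

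Other cell types were followed through marker lists, as the log2 of their summed signal in each pool. One pool stood apart: null replicate 3 had an erythroid sum of 9.08, where the other 7 pools lay between 1.80 and 4.95, an endothelial sum of 4.11, against 2.11 and 2.29 in the other null pools, 1.83 to 2.13 in control and 1.01 and 1.29 in Tbx18VP16 pools, and a ureteric epithelial sum of 3.84, against 1.39 to 2.67. Changes of the members in null pools are therefore also given without it. The ureteric epithelial sum was 1.77, 2.67 and 3.84 in null pools 1 to 3, and 1.39, 2.05 and 1.91 in control pools. With all pools, 11 epithelial markers were higher and 1 lower in null against control, with a median of 1.51. For endothelium 9 were higher and 0 lower (median 1.29), and for the erythroid list 7 and 1 (1.90). limma called 0 of these. All 13 nephron progenitor markers were tested. They summed to 5.34 to 5.75 in control, 6.07 to 6.20 in null and 6.20 to 6.28 in Tbx18VP16 pools. Both altered genotypes thus lay above control in that sum. Against control 11 of these markers were higher and 2 lower in null, and 10 higher and 3 lower in Tbx18VP16 pools. Between Tbx18VP16 and null 7 were higher and 6 lower. Markers of ureteric mesenchyme (10 of 10 tested, Tcf21 among them) summed to 6.17 to 6.52 in control, 5.27 to 6.16 in null and 5.25 to 5.31 in Tbx18VP16 pools. That sum follows its brightest probes, Bmp4 and Tcf21. Gene by gene, 3 were higher and 7 lower in null, among the lower Tbx18 itself, which the null allele removes. In Tbx18VP16 pools 5 were higher and 5 lower against control, with a median of -0.02, and the 1 call was of a higher gene (Foxf1, 2.94 ± 0.44, adjusted p = 0.0126). Mural cell markers (7 of 8 tested, Kcnj8 well above background on no array) overlapped in all groups, at 5.01 to 5.40, 4.73 to 5.45 and 5.28 to 5.48. Of the endothelial list 9 of 11 were tested (Erg well above background on no array and Tek on 1). Against control 7 of the 9 were lower in Tbx18VP16 pools, where Kdr fell by 1.34 ± 0.29 (adjusted p = 0.0411). Of the erythroid list 8 of 9 were tested. White blood cell markers (6 of 8 tested on all arrays, Ptprc and Lyz2 each well above background on 1) summed to 0.33 to 0.46 in control, 0.51 to 1.03 in null and -0.09 to 0.19 in Tbx18VP16 pools. Neural crest and neuron markers (7 of 8, Foxd3 on 1 array) summed to 0.97 to 1.08, 1.49 to 1.95 and 0.24 to 0.48. In bulk RNA, fewer cells of a type and less RNA per cell cannot be told apart. The part of these shifts in the changes of the 9 genes was not tested.

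**Figure D1:**
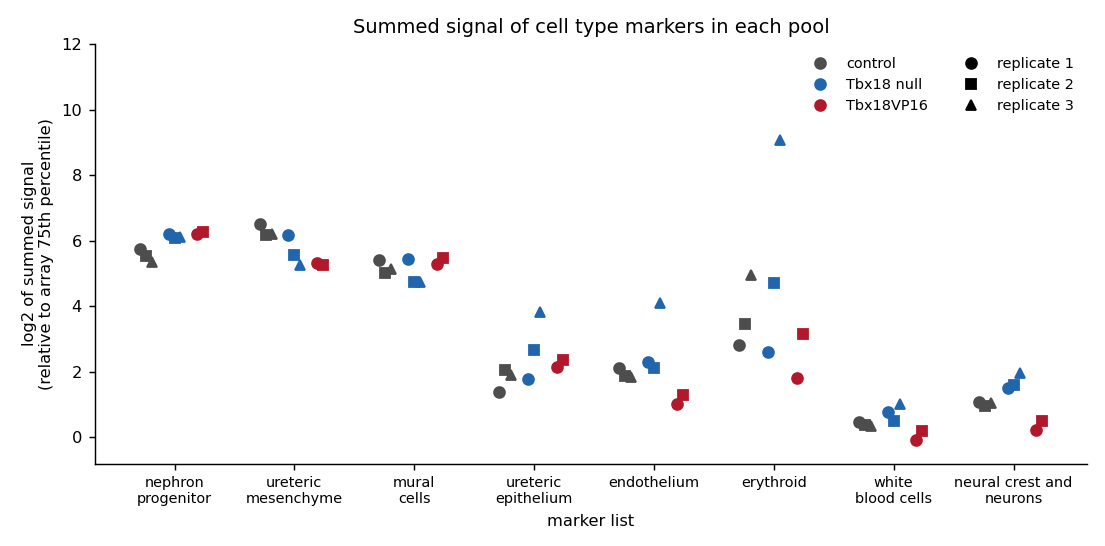
Summed signal of 8 marker lists in each pool. The y axis is the log2 of the summed signal relative to the array's 75th percentile, each point is 1 pool, the colour gives the genotype and the shape the replicate number. Null replicate 3 lies highest in the erythroid (9.08), endothelial (4.11) and ureteric epithelial (3.84) lists, and the nephron progenitor list lies above control in all 5 pools of altered genotype.

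Over the 9 genes, 1 change passed the threshold in the 3 comparisons: Smoc2 rose in Tbx18VP16 against control. The 9 genes were chosen with earlier results of these data known, so their counts and medians are a description. In null against control, 2 members were higher and 7 lower, with a median change of -0.45 where that of all 19198 genes tested was 0.01. limma called 0 of the 9, and 0 of all genes (0%). At an unadjusted p under 0.05 it took 3 of the 9 and 922 of all genes (4.80%). Same-numbered control and null pools deviated together in these same data, and were taken as pairs on that ground. This comparison was therefore also fitted with the pair as a block, which called Smoc2 among 230 genes (1.20%). Of these genes 118 were higher (0.615%) and 112 lower (0.583%). In Tbx18VP16 against control 4 members were higher and 5 lower, with a median of -0.09 (-0.14 over all 20040 genes), and 1 was called, higher, where 5.21% of all genes were, 1.94% higher and 3.27% lower. At an unadjusted p under 0.05 there were 4 of the 9 and 22.7% of all genes. In Tbx18VP16 against null 6 members were higher and 3 lower, with a median of 0.60 (-0.15 over all genes). None was called there, with 5 at an unadjusted p under 0.05, where 21.8% of all genes were, and 3.59% of all genes were called, 1.10% higher and 2.49% lower. Both Tbx18VP16 comparisons share the Tbx18VP16 pools, and both comparisons with control share the control pools.

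**Figure D2:**
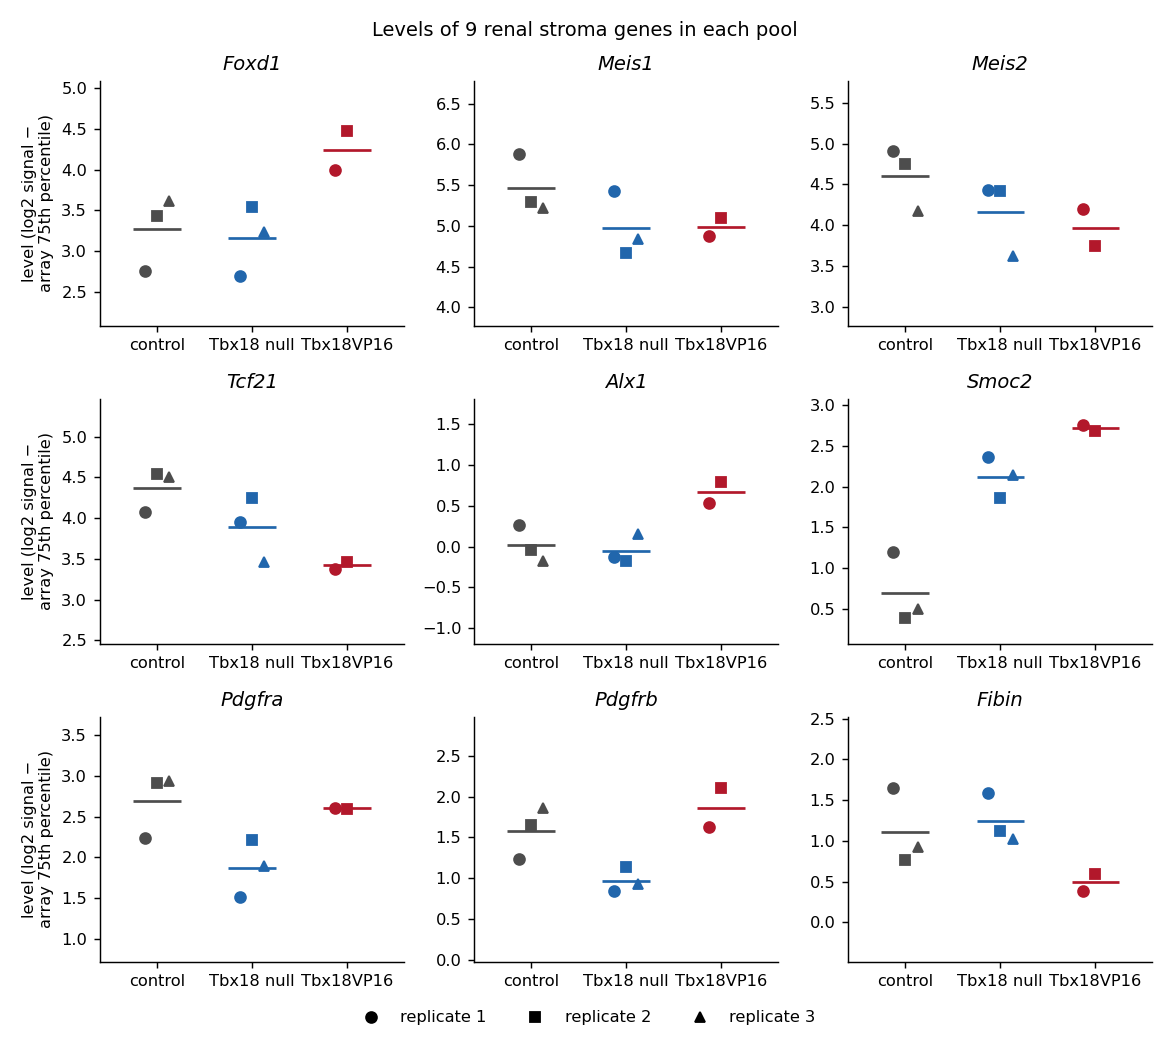
Level of each of the 9 genes in each pool. The y axis is the log2 signal minus the array's 75th percentile and spans 3 log2 units in every panel, points are single pools with the shape giving the replicate number, and bars are group means. Smoc2 lies between 0.39 and 1.20 in control and at 1.85 or more in all 5 other pools, and Pdgfra and Pdgfrb lie lowest in the null pools.

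Groups whose pools did not overlap were common among all genes, so they are read against that share. Null and control pools did not overlap for 3 members, and for 7.75% of all genes: Smoc2 higher, where 4.14% of all genes were, and Pdgfra and Pdgfrb lower, where 3.61% were. Tbx18VP16 and control pools did not overlap for 6 members, and for 47.5% of all genes, 3 higher (Foxd1, Alx1, Smoc2; 17.4% of all genes) and 3 lower (Meis1, Tcf21, Fibin; 30.1%). Tbx18VP16 and null pools did not overlap for 48.0% of all genes and for 6 members, 5 that were higher (Foxd1, Alx1, Smoc2, Pdgfra, Pdgfrb; 16.2%) and 1 that was lower (Fibin; 31.7%).

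Foxd1, the factor that defines stromal progenitors, was measured by a probe at chr13:99126452-99126511 on the plus strand (mm9), starting at base 2252 of its transcript. Its level was 2.75, 3.43 and 3.62 in the control pools, 2.70, 3.54 and 3.24 in the null pools, and 3.99 and 4.48 in the Tbx18VP16 pools. Control and null overlapped throughout, and both Tbx18VP16 pools lay above every other pool. In null the change was -0.11 ± 0.34 (95% interval -0.90 to 0.68), and -0.15 without null replicate 3. In Tbx18VP16 pools it was 0.97 ± 0.36 against control (adjusted p = 0.164) and 1.08 ± 0.36 against null (adjusted p = 0.139), or 1.96-fold and 2.11-fold. These differences did not pass the threshold. Among the other forkhead D genes, Foxd2 changed by 0.58 ± 0.29 in null and 0.59 ± 0.29 in Tbx18VP16 pools against control (adjusted p = 1 and 0.274).

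Meis1 was read at chr11:18780695-18780754 on the minus strand, from base 3117 of its transcript. Its levels were 5.88, 5.29 and 5.21 in control, 5.43, 4.67 and 4.83 in null, and 4.87 and 5.09 in Tbx18VP16 pools. Null pool 1 lay among the controls, and both Tbx18VP16 pools lay just below the lowest control. The change was -0.48 ± 0.31 in null and -0.48 ± 0.32 in Tbx18VP16 pools against control (adjusted p = 1 and 0.411). Without null replicate 3 the null change was -0.41. Between Tbx18VP16 and null pools the difference was 0.00 ± 0.32, with an interval of -0.73 to 0.74.

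Meis2, its close relative, was read at chr2:115689641-115689700 on the minus strand, from base 2309. Control pools had levels of 4.91, 4.74 and 4.17, null pools 4.43, 4.42 and 3.62, and Tbx18VP16 pools 4.19 and 3.74. All 3 groups overlapped. In each of the 3 same-numbered pairs null lay below control, by 0.47, 0.33 and 0.54 for Meis2 and by 0.45, 0.62 and 0.38 for Meis1. Without null replicate 3 the null change of Meis2 was -0.18. With the pair as a block the adjusted p was 0.207 for Meis2 and 0.187 for Meis1. Against control the Tbx18VP16 change of Meis2 was -0.64 ± 0.35 (adjusted p = 0.324).

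MEIS proteins bind DNA together with other TALE homeodomain proteins, chiefly the PBX family. None of 9 such genes taken as a list (Meis3, Pknox1, Pknox2, Tgif1 and Tgif2 among them) was called by limma in any comparison. At an unadjusted p under 0.05 there were 1, 0 and 1 in null, in Tbx18VP16 against control and in Tbx18VP16 against null. Pknox2 came nearest: its mean level was 1.10 in control, 0.57 in null and 1.49 in Tbx18VP16 pools, with a difference of 0.92 ± 0.21 between Tbx18VP16 and null (adjusted p = 0.054). That difference was called after quantile normalisation (0.0343) and in the authors' values (0.0367).

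Tcf21 was read at chr10:22537563-22537622 on the minus strand, from base 685. The control pools stood at 4.07, 4.54 and 4.50, the null pools at 3.95, 4.25 and 3.45, and the Tbx18VP16 pools at 3.37 and 3.46. Both Tbx18VP16 pools lay below every control pool and beside null pool 3. The Tbx18VP16 change against control was -0.95 ± 0.29 (interval -1.63 to -0.28, adjusted p = 0.107). In null it was -0.49 ± 0.29 and, without null replicate 3, -0.27. Tcf21 is also 1 of the ureteric mesenchyme markers and adds to their sum.

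Alx1, a paired-type homeodomain factor known from the mesenchyme of the head, was read at chr10:102471172-102471231 on the minus strand, from base 1742. Its levels were 0.26, -0.04 and -0.17 in control, -0.13, -0.17 and 0.15 in null, and 0.54 and 0.79 in Tbx18VP16 pools. Control and null overlapped, and both Tbx18VP16 pools lay above all of them. The null change was -0.07 ± 0.24, and -0.17 without null replicate 3. The Tbx18VP16 difference was 0.65 ± 0.24 against control (adjusted p = 0.162) and 0.72 ± 0.24 against null (adjusted p = 0.140), short of the threshold. Its relative Alx4 stood at -3.58 in control and -3.50 in null, and at -5.06 in Tbx18VP16 pools, a change of -1.47 ± 0.42 (adjusted p = 0.089).

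Smoc2 encodes a secreted calcium-binding matrix protein of the SPARC family. Its probe lies at chr17:14541664-14541723 on the plus strand and starts at base 2698. The levels were 1.20, 0.39 and 0.50 in the control pools, 2.36, 1.85 and 2.14 in the null pools, and 2.75 and 2.68 in the Tbx18VP16 pools. The 3 genotypes did not overlap: every null pool lay above every control pool, and both Tbx18VP16 pools above every null pool. The rise in Tbx18VP16 pools against control was 2.02 ± 0.30, or 4.05-fold (interval 1.33 to 2.71 in log2, adjusted p = 0.0122).

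The null change of Smoc2 was 1.42 ± 0.30, or 2.68-fold (interval 0.72 to 2.12), with an adjusted p of 0.244 on the 6 arrays. Within the 3 pairs null exceeded control by 1.17, 1.46 and 1.64, and with the pair as a block the rise passed at an adjusted p of 0.0358. The blocked call was lost without pair 1 (adjusted p = 0.0936) or pair 2 (0.252) and kept without pair 3 (0.00783). Without null replicate 3 alone the change was 1.41. The Tbx18VP16 call was lost without Tbx18VP16 replicate 1 (1.98, adjusted p = 0.130) or replicate 2 (2.06, adjusted p = 0.142), where the remaining pool is assumed to vary like the other groups. Between Tbx18VP16 and null the difference was 0.60 ± 0.30 (adjusted p = 0.284). The summed signal of nephron progenitor markers, though not every marker, was higher in the same pools as Smoc2. The part of these markers in the rise of Smoc2 was not tested.

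Smoc1, the other gene of the SMOC pair, went the opposite way in Tbx18VP16 pools. Its mean level was 0.77 in control, 0.35 in null and -1.29 in Tbx18VP16 pools. It fell by 2.06 ± 0.26 in Tbx18VP16 pools against control (adjusted p = 0.00634) and by 1.63 ± 0.26 against null (adjusted p = 0.0214), and changed by -0.42 ± 0.25 in null (adjusted p = 1). It was the only call, in those comparisons, among 9 tested of 12 relatives of the members, with Foxd3, Tcf23 and Tcf24 too dim to test. Among these relatives 1 gene had an unadjusted p under 0.05 in null. The Smoc1 call against control was lost without Tbx18VP16 replicate 1 (adjusted p = 0.0676) or 2 (0.120). That against null was lost without either of them (0.163 and 0.287) or without null replicate 2 (0.0638). Sparc itself, the matrix protein that names the family, changed by -0.56 ± 0.39 in null and -0.59 ± 0.41 in Tbx18VP16 pools against control (adjusted p = 1 and 0.431).

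Fibin encodes a small secreted protein first described in fin bud development. Its probe is at chr2:110201122-110201181 on the minus strand, from base 1969. Levels were 1.65, 0.77 and 0.92 in control, 1.59, 1.12 and 1.02 in null, and 0.39 and 0.59 in Tbx18VP16 pools. Control and null overlapped, with pool 1 highest in both, and the Tbx18VP16 pools lay below all the others. The change was 0.13 ± 0.32 in null, and 0.24 without null replicate 3. In Tbx18VP16 pools it was -0.62 ± 0.32 against control (adjusted p = 0.298) and -0.75 ± 0.32 against null (adjusted p = 0.225).

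Pdgfra, the receptor of mesenchymal and fibroblast precursors, was read at chr5:75593888-75593947 on the plus strand, from base 6211. It stood at 2.24, 2.91 and 2.93 in control, 1.51, 2.21 and 1.90 in null, and 2.61 and 2.59 in Tbx18VP16 pools. Every null pool lay below every control pool, though null pool 2 only just below control pool 1, and the Tbx18VP16 pools lay within the control range. The null change was -0.82 ± 0.30 (interval -1.54 to -0.11), a 1.77-fold lower mean, and its adjusted p was 0.871, or 0.0751 with pairs blocked. Null lay below control by 0.73, 0.70 and 1.03 in the 3 pairs. Without null replicate 3 the change was -0.84, and the blocked fit gave no call without pair 1 (-0.87, adjusted p = 0.211) or pair 2 (-0.88, 0.405) and a call without pair 3 (-0.72, 0.0409). Tbx18VP16 pools differed from control by -0.09 ± 0.31 (interval -0.80 to 0.62) and from null by 0.73 ± 0.31 (adjusted p = 0.219).

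Pdgfrb, the receptor of pericytes and mesangial cells, was read at chr18:61244606-61244665 on the plus strand, from base 5297. Its levels were 1.24, 1.65 and 1.87 in control, 0.84, 1.13 and 0.93 in null, and 1.63 and 2.11 in Tbx18VP16 pools. Null pools again lay below every control pool, and Tbx18VP16 pools overlapped with control and lay above null. The null change was -0.62 ± 0.25 (adjusted p = 1, and 0.185 with the block), and -0.60 without null replicate 3. Pairs 1, 2 and 3 gave -0.39, -0.52 and -0.94. The difference between Tbx18VP16 and null was 0.90 ± 0.27, or 1.86-fold (interval 0.27 to 1.53, adjusted p = 0.115), and that between Tbx18VP16 and control 0.28 ± 0.27 (adjusted p = 0.582). The summed signal of mural cell markers, of which Pdgfrb is a usual companion, overlapped between the groups. Marker by marker, 1 was higher and 6 lower in null, with a median change of -0.10. In Tbx18VP16 pools 3 were higher and 4 lower against control. The part of mural cells in the change of Pdgfrb was not tested.

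The receptors' ligands gave no call. Of Pdgfa, Pdgfb, Pdgfc, Pdgfd and the receptor-like gene Pdgfrl, all 5 were tested and limma called 0 in each comparison, with 2, 0 and 1 at an unadjusted p under 0.05 in null, in Tbx18VP16 against control and in Tbx18VP16 against null. Pdgfd changed by -1.07 ± 0.34 in null (adjusted p = 0.646) and differed by 0.93 ± 0.35 between Tbx18VP16 and null (adjusted p = 0.172). Its mean level was low, at -3.89 in control, -4.96 in null and -4.03 in Tbx18VP16 pools. Under alternative settings its null change ranged from -1.33 to -0.54 and its difference between Tbx18VP16 and null from 0.17 to 1.21. Pdgfa, a ligand of Pdgfra, stood at 0.43 in control, 1.18 in null and 0.66 in Tbx18VP16 pools, a null change of 0.74 ± 0.26 (adjusted p = 0.774).

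**Figure D3:**
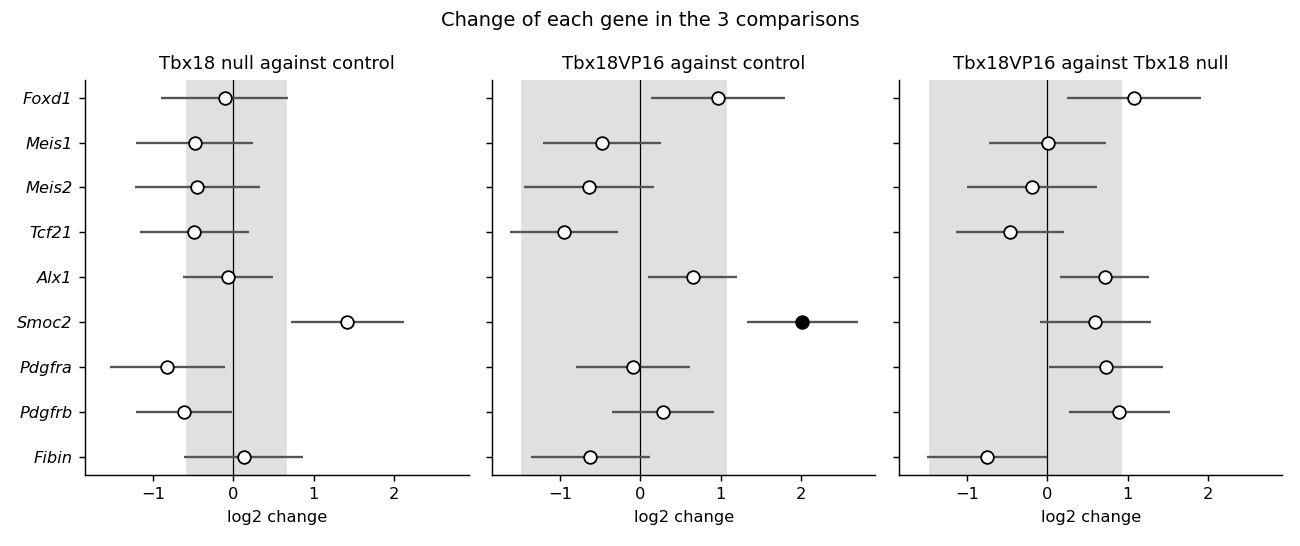
Log2 change of each gene in the 3 comparisons, with 95% intervals of the limma fit as lines. Filled points have an adjusted p under 0.05, and the grey band holds the middle of all genes tested, from their 5th to their 95th percentile. The filled point is Smoc2 in Tbx18VP16 against control (2.02), and Smoc2, Pdgfra and Pdgfrb lie outside the band in null.

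By mean level the genotypes fell into several orders. Smoc2 was lowest in control, higher in null and highest in Tbx18VP16 pools, and its groups did not overlap. Meis2 and Tcf21 were in the opposite order, with overlap between neighbours, although control and Tbx18VP16 pools did not overlap for Tcf21. Foxd1, Alx1 and Pdgfrb were lowest in null and highest in Tbx18VP16 pools, but control and null overlapped for Foxd1 and Alx1, and control and Tbx18VP16 for Pdgfrb. Pdgfra and Meis1 were lowest in null and highest in control, with Tbx18VP16 pools overlapping control for Pdgfra and null for Meis1. Fibin was lowest in Tbx18VP16 and highest in null pools, where control and null overlapped.

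Pools of a genotype also differed among themselves. Replicate 1 was the lowest of its group in both control and null for 3 members (Foxd1, Pdgfra, Pdgfrb) and the highest in both for 4 (Meis1, Meis2, Smoc2, Fibin). That makes 7 of 9, where 67.4% of all genes had replicate 1 at the same end in both groups, 21.3% lowest and 46.0% highest. The 75th percentile of the signal was lowest on the same arrays, 976 in control 1 and 1037 in null 1 against 1356 to 1757 in the other 4. As a description over 8 arrays, deviations from the group means correlated at 0.92 between Foxd1 and Pdgfra, at 0.91 between Foxd1 and Pdgfrb, at -0.97 between Smoc2 and Pdgfra and at -0.96 between Meis1 and Pdgfra. Smoc2 and Pdgfra deviated in opposite directions in 5 of the 8 pools, control 1 to 3 and null 1 and 2. In null 3 and both Tbx18VP16 pools they deviated the same way, by less than 0.04.

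**Figure D4:**
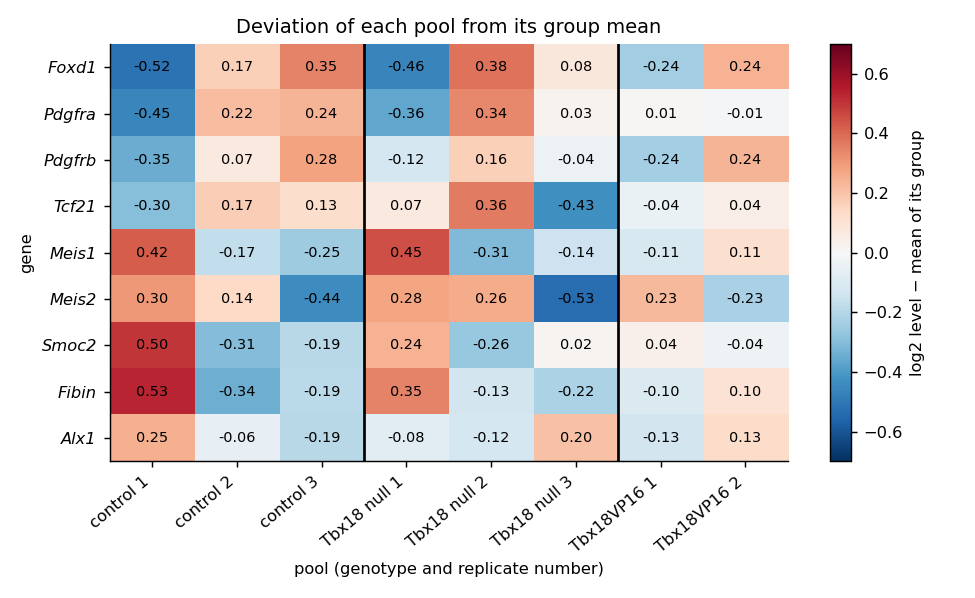
Deviation of each pool from the mean of its genotype, in log2, for the 9 genes. Columns are pools, rows are genes and the printed values give the colour. Foxd1 deviates by -0.52 in control 1 and -0.46 in null 1, and Fibin by 0.53 and 0.35 in the same pools.

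Likeness over the 8 arrays was given as Pearson's r among 20040 genes. The 2 named genes nearest each member were Atp1b2 (0.990) and Lpar3 (0.985) for Foxd1, Dcp2 (0.979) and Tceal5 (0.976) for Meis1, and Peg3 (0.966) and Srp54b (0.958) for Meis2. For Tcf21 they were Rhod (0.981) and Olfml3 (0.972), for Alx1 Ptprz1 (0.987) and Spata5 (0.984), and for Smoc2 Nat8l (0.986) and Wt1 (0.983). Pdgfra had Gpr85 (0.966) and Efhd2 (0.961), Pdgfrb Kiss1r (0.977) and Arhgap44 (0.969), and Fibin 1110020A21Rik (0.993) and Nme2 (0.989). No member was among the 2 nearest of another. Between members the highest r was 0.87, for Pdgfra with Pdgfrb, and the lowest -0.89, for Foxd1 with Fibin and for Tcf21 with Smoc2. The 8 arrays share genotype, slide and design within groups.

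A wider list of 25 other stromal genes, all tested, was set beside the members. It was chosen with earlier results of these data known, so its counts are a description. In null 8 were higher and 17 lower, with a median of -0.39 (0.01 over all genes). limma called 0, and 11 had an unadjusted p under 0.05, where 4.8% of all genes had. In the fit with the pair as a block 1.20% of all genes were called, and 5 of the list, all lower. They were Dcn, which encodes the matrix proteoglycan decorin (-1.50 ± 0.31, blocked adjusted p = 0.0273), Zeb2, a zinc-finger repressor (-1.63 ± 0.37, 0.0273), Cxcl12, a chemokine of stromal cells (-0.98 ± 0.25, 0.0447), Postn, which encodes periostin (-2.72 ± 0.80, 0.0145), and Lox, the collagen cross-linking enzyme (-1.19 ± 0.45, 0.0364). The standard errors given are those of the fit without the block, and the adjusted p those of the blocked fit. Postn and Lox are named because the count is small, after their values were seen. Without pair 1 or pair 2 the blocked calls of Dcn, Zeb2 and Cxcl12 were lost (adjusted p from 0.0936 to 0.356). Those of Postn and Lox were not followed without a pair. Crabp1, a retinoic acid binding protein gene, changed by 0.84 ± 0.21 (adjusted p = 0.388).

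In Tbx18VP16 against control the same list gave 9 higher and 16 lower, with a median of -0.29 (-0.14 over all genes). Of its genes 3 rose: Ntn1, the guidance cue netrin 1 (3.30 ± 0.35, adjusted p = 0.00358), Rspo3, a secreted WNT enhancer (2.43 ± 0.25, 0.00282), and Crabp1 (1.77 ± 0.24, 0.00901). Another 2 were called lower, where 1.94% of all genes were called higher and 3.27% lower. Dcn fell by 3.56 ± 0.32 (adjusted p = 0.00161), and Sfrp1, a secreted WNT antagonist named after its value was seen, fell by 0.92 ± 0.20 (adjusted p = 0.0414). Without Tbx18VP16 replicate 1 the calls of Ntn1 and Crabp1 were lost (both 0.0538), and without replicate 2 those of Ntn1, Rspo3 (both 0.0664) and Crabp1 (0.139). In Tbx18VP16 against null 14 were higher and 11 lower, with a median of 0.26 (-0.15 over all genes). Rspo3 (1.88 ± 0.25, adjusted p = 0.012) and Ntn1 (2.01 ± 0.35, 0.0281) rose and Dcn fell by 2.06 ± 0.32 (0.0193), calls that were lost without either Tbx18VP16 pool (adjusted p from 0.139 to 0.290). Cxcl12 differed by 1.12 ± 0.25 (adjusted p = 0.055), and was called after quantile normalisation (0.00988) and in the authors' values (0.00892). Without null replicate 2, the calls of Rspo3 (0.0518) and Ntn1 (0.0689) were lost too.

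**Figure D5:**
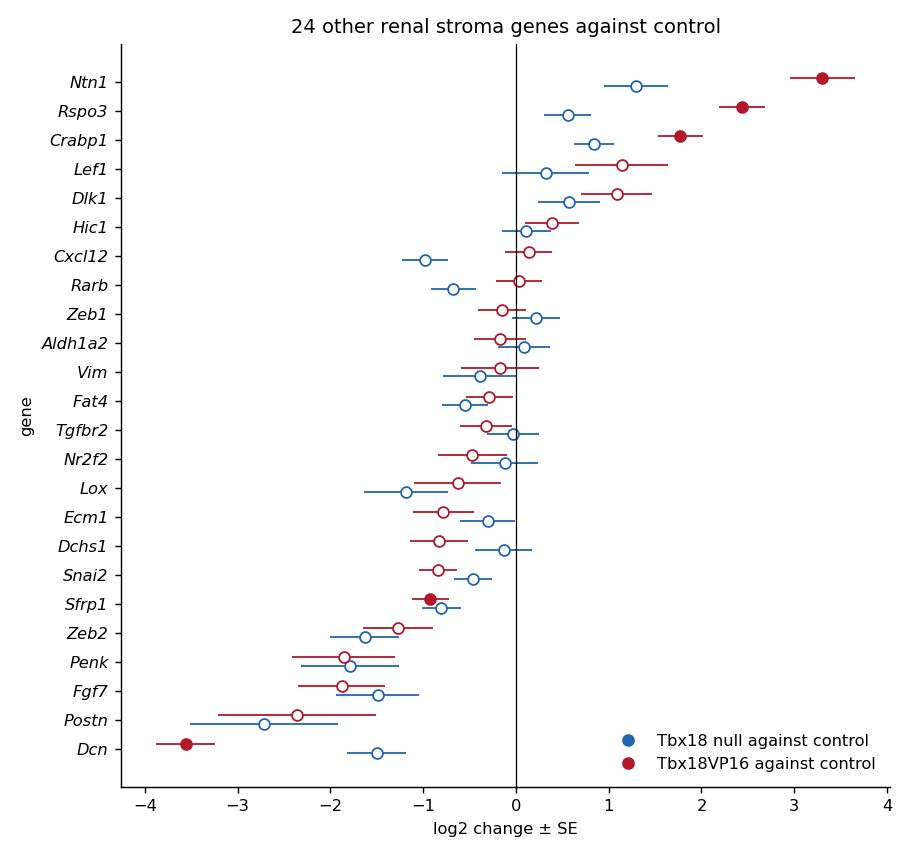
Log2 change against control, with the standard error of the limma fit, for 24 of the 25 other stromal genes in null (blue) and Tbx18VP16 (red) pools. Filled points have an adjusted p under 0.05. Dcn lies lowest in Tbx18VP16 pools (-3.56) and Ntn1 highest (3.30), and no null point is filled.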

How the data were processed

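RNA of 3 control, 3 Tbx18 null and 2 Tbx18VP16 pools was hybridised to 1-colour arrays. Per the submitters' processing notes the scans were read with Agilent Feature Extraction 10.7.3.1, and per the file headers the deposited spot intensity was already background-corrected. The table of values that the authors deposited gives linear intensity, with identical sorted values on all arrays, so it was quantile-normalised with a floor. It served as an alternative. Probe coordinates are those of the files (mm9).

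Control and outlier spots (1.86% to 2.55%) were left out and the 4 spots of a probe averaged. The log2 of the deposited processed signal minus each array's 75th percentile over 39429 probes was taken. That percentile lay between 976 and 2129. Names came from RefSeq tables (GRCm38.p6): 27597 probes by accession, 3488 by symbol, 393 by synonym, 1793 by the file's name, and 6158 unnamed. The probe of highest mean stood for a gene. Testing required signal well above background on 3 or more of 6 arrays, or 2 or more of 8 in the Tbx18VP16 fits.

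limma 3.58.1 (R 4.3.3, lmFit and eBayes, two-sided) compared null with control on 6 arrays, and Tbx18VP16 with each on all 8, since a group of 2 gives little spread of its own. The scripts were tested on simulated data. The members and lists were chosen with earlier results of these data known. Named were all members, up to 4 genes of smallest p per list and comparison, and the 2 genes most like each member. Some of them are not reported here. Deviations of same-numbered control and null pools correlated across genes at 0.832, 0.719 and 0.437, those of different number at -0.758 to 0.317, so numbers were taken as pairs there. Tbx18VP16 pools gave -0.272 to 0.040 with pools of their number, and were not paired.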

Additional observations from a re-analysis of the deposited data

How the results depend on the processing

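Over 522 values of the 9 genes under alternative settings, 494 kept direction and side of the threshold, 8 passed it newly, 2 no longer did and 18 changed sign. Over 579 of the other named genes the counts were 539, 21, 19 and 0. Without a dim-probe filter null called 1 gene, with the slide as a block 6, with the replicate block 230 and on all 8 arrays 75. Leaving out 1 replicate gave 0 to 3 genes and, in the blocked fit, 0 to 810 (members 0 to 2, against 1). In Tbx18VP16 against control, 1044 genes became 635 with normexp background, 642 with the filter on every array, and 58 to 1847 without 1 replicate (members 0 to 1). In Tbx18VP16 against null, 720 became 408, 460 and 11 to 778, and 419 on the 2 groups alone. The replicate block, whose numbers do not pair Tbx18VP16 pools, gave 3521 and 3163 genes (17.6% and 15.8%), with 4 members (Foxd1 0.0240, Meis2 0.0384, Tcf21 0.0491, Smoc2 0.00665) and 2 (Foxd1 0.0206, Pdgfrb 0.0371, adjusted p). The cause was not tested.

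Calls split 388 higher and 656 lower against control but 508 and 579 after quantile normalisation, and 524 and 561 in the authors' values. Against null the split was 221 and 499, then 319 and 387, and 345 and 386. Quantile normalisation moved the median of all genes from -0.14 to -0.014 against control. Small changes turned sign. Foxd1 in null was 0.024 on the first slide alone and in the blocked fit without pair 3, with -0.37 to 0.12 without 1 replicate. Alx1 in null ranged from -0.17 to 0.06 (-0.26 to 0.097 in the blocked fit without a pair), and Fibin in null from -0.044 to 0.40. Pdgfra in Tbx18VP16 against control was 0.049 after quantile normalisation and 0.038 in the authors' values (-0.32 to 0.025 without 1 replicate). Meis2 in Tbx18VP16 against null was 0.012 after quantile normalisation (-0.46 to 0.036), and Meis1 -0.095 with the replicate block (-0.15 to 0.23). The Smoc2 call in Tbx18VP16 pools held with slide (adjusted p = 0.0159) or pool pairs (0.0130) as a random block, added after the data were seen, as were the blocked fits without a pair and the fit on 2 groups. The Ntn1 call against null was lost with pool pairs as a random block (0.0891). The random-block fits cannot tell genotype from slide or design, since the slide and design of the Tbx18VP16 arrays held no other group.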
